A study of Rattus norvegicus with 8 samples.

Results

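The response of castrated rats to testosterone after 24 h was measured on 4 Agilent 2-colour arrays, of 8 in the series. Each array carried RNA of castrated adult male Wistar rats given testosterone propionate 24 h earlier, and RNA labelled as the castrated control of 24 h, so each array gives a treated-to-control ratio for every gene, on the log2 scale. The treated rats had received a single subcutaneous dose of 4 mg/kg in 1 mL/kg of corn oil; the animals were 120 ± 12 days of age, and castration was common to the treated and the control RNA. The 4 other arrays made the same comparison 8 h after the dose. The arrays were chosen by their labelled time, and every gene spot on them was used. The series title concerns muscle atrophy, and the labels call the material castrated rat cells (C3d) without naming a muscle. Whether an array held 1 animal or a pool, whether the controls had received oil, and whether the control RNA was shared between the 8 h and 24 h arrays is not stated in the labels. Replicates are called biological in the design text, but whether arrays of opposite dye repeat the same RNA extracts is not stated. The p-values rest on a spread per gene estimated over all 8 arrays, those of 8 h included, after allowing for the dye.

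Testosterone is an androgen, a steroid hormone that acts on cells by changing the transcription of target genes. Castration removes the main source of the hormone, and skeletal muscle then loses mass; androgen replacement restores protein synthesis and slows protein breakdown. Genes followed in atrophying muscle include the muscle ubiquitin ligases Fbxo32 (atrogin-1) and Trim63 (MuRF1), autophagy genes and the growth factor Igf1, and androgen-responsive muscles are also known for induced polyamine synthesis.

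The RNA looked like that of skeletal muscle by its own markers. Of 18 fibre genes, 15 were measured, among them the creatine kinase Ckm, the fast myosin Myh4, the fast troponins Tnni2 and Tnnt3 and myoglobin (Mb), and the summed level of the 15 was 267100 to 294100 intensity units in the controls and 200400 to 240400 in the treated samples. The median log2 ratio of the 15 was -0.37 with loess, which evens the dyes along the intensity range and is used throughout. It was -0.29 from the scanner's processed signals and 0.07 with each array centred on its median instead. Under that centring the median of all genes tested was 0.155, so 0.07 lay above 0 but below the genes at large. Actn3, Atp2a1, Myl11 and Tnni2, which are among the 15, had saturated spots on 2 arrays in the treated and in the control RNA. Between 32.8% and 44.9% of probes were well above background in a sample. After filtering, 10884 genes were tested, 7546 of them with a symbol. Replicates 1 and 2 carried the treated RNA as Cy5, and replicates 3 and 4 as Cy3. Over all genes, the ratios of replicates 1 and 2 correlated at 0.708 and those of replicates 3 and 4 at 0.548, against 0.230 to 0.401 between arrays of opposite dye; these are correlations across genes, which are not independent replicates. All 4 arrays of 24 h lay on 1 slide and those of 8 h on another; slide and time therefore cannot be told apart.

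After 24 h of testosterone, 763 of 10884 genes (7.01%) differed between treated and control RNA at an adjusted p under 0.05 in limma. Of these, 448 (4.12%) were higher and 315 (2.89%) lower. Every count of calls in a gene list below is to be read beside these shares. The changes were mostly small: the median rise was 0.434 and the median fall -0.492 on the log2 scale, and 20 genes rose and 22 fell by at least 1 log2 unit, a 2-fold change. The spread of a gene over the 4 arrays had a median SD of 0.16. Of the 763 genes, 731 had the same sign on all 4 arrays, and 761 had the same sign in the mean of replicates 1 and 2 and in the mean of replicates 3 and 4, the opposite dye orientations.

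The share of rises depended on the scaling. With loess, 58.7% of the calls were rises; with median centring of each array in its place, 380 genes were higher and 18 lower, so that 95.5% were rises, and from the scanner's processed signals the share was 52.8%. Median centring put the median of all genes at 0.155 and that of the brightest 25% at 0.361, against 8.7e-05 with loess for all genes. The count also depended on each array: without replicate 1, 2, 3 or 4 of 24 h it was 189, 361, 331 and 380 genes, and without replicate 1, 3 or 4 of the 8 h arrays, which share the estimate of the spread, it was 1241, 505 and 601.

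**Figure D1:**
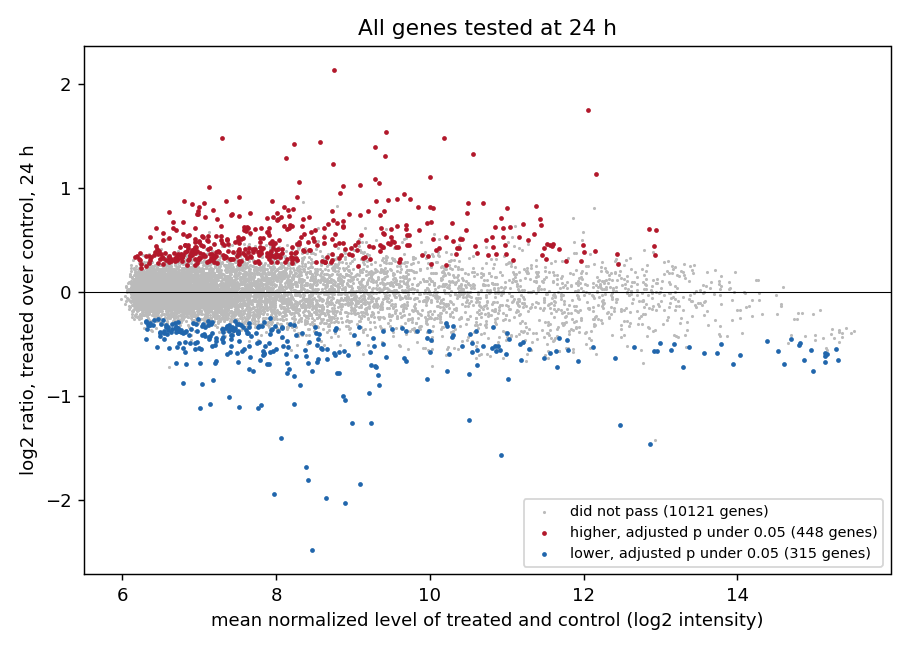
Treated-to-control log2 ratio at 24 h (vertical) against the mean normalized level of both RNAs (horizontal, log2 intensity), 1 point per gene. Red points are the 448 genes that rose, blue points the 315 that fell and grey points the 10121 that did not pass; the highest point is a probe without a gene symbol, at 2.13, and the lowest is Fbxo32, at -2.48.

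**Figure D2:**
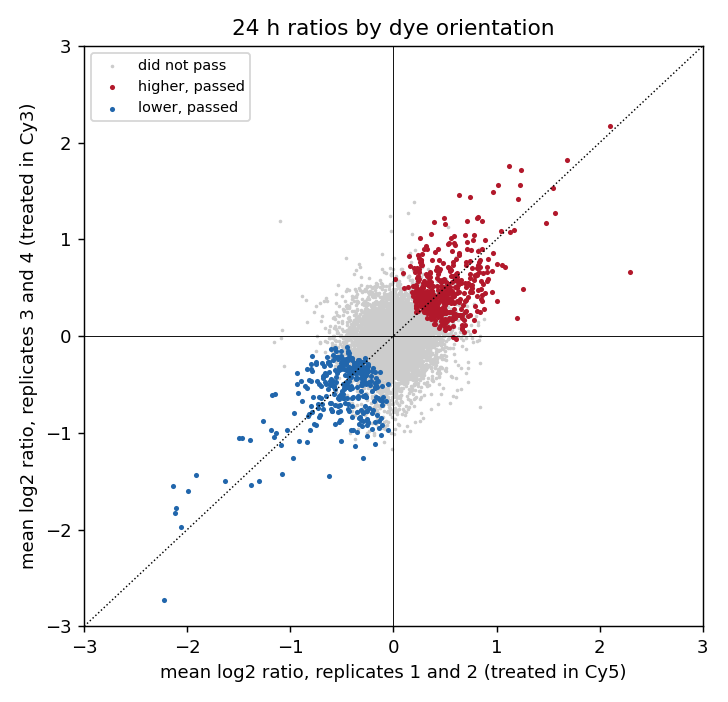
Mean log2 ratio of replicates 1 and 2, with treated RNA in Cy5 (horizontal), against that of replicates 3 and 4, with treated RNA in Cy3 (vertical), 1 point per gene, with the line of equal values dotted. Red and blue points passed the threshold, and 761 of these 763 lie in the quadrants where both dye orientations have the same sign.

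Ubiquitin ligases and their adaptors, which mark muscle proteins for breakdown by the proteasome, held the largest named fall. Among 30 with a value, 8 fell and 1 rose, and 21 missed the threshold, beside 2.89% lower and 4.12% higher over all genes. The list's median was -0.11 with loess, -0.21 from the processed signals and 0.08 with median centring. All genes tested had a median of 0.155 under median centring, so the list lay above 0 but below them there. With median centring 3 members fell and 0 rose, and from the processed signals 10 fell and 0 rose. Fbxo32, the F-box subunit atrogin-1, stood at -2.40, -2.05, -3.16 and -2.30 in replicates 1 to 4. All 4 arrays were far below 0, with replicate 3 the lowest. Fbxo32 fell by 2.48 on the log2 scale (95% interval -2.93 to -2.03, adjusted p = 0.000142), which is 5.57-fold lower. The 8 h ratio was -0.74, and the difference between times passed (adjusted p = 0.0211). The Fbxo32 probe is shown because it carries the largest fall; its 60 bases lie on the minus strand of rn4 within chr7:94921822-94932899, a span of 11078 bases, so that parts of the probe lie apart in the genome.
Fbxo32 probe: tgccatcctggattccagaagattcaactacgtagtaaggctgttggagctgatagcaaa

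Klhl38, a kelch protein of striated muscle, had values of -2.51, -1.70, -2.06 and -1.49, and fell 3.84-fold (adjusted p = 6.94e-05). Its probe lies at chr7:95042271-95042330 on rn4, on the same chromosome and strand as that of Fbxo32. Asb2, the substrate receptor of a cullin ligase, stood at -1.41, -1.36, -2.30 and -0.79 and fell by 1.46, and Zfand5, a zinc finger protein that binds the proteasome, stood at -1.41, -1.53, -1.51 and -0.58 and fell by 1.26. Replicate 4 was the array nearest 0 for both. Asb15 (-0.69), Trim63 (-0.68), Fbxo31 (-0.52) and Fbxo40 (-0.36) also fell, and Rnf115 (0.34) rose. Trim63, the ring finger ligase MuRF1, was at -0.71, -0.50, -1.05 and -0.46, below 0 on every array, with an adjusted p of 0.0207. At 8 h Trim63 stood at 0.23, and the difference between the times did not pass (adjusted p = 0.0615). Without replicate 1, 2, 3 or 4 in turn, 5, 6, 5 and 7 ligases fell; Trim63 missed the threshold without replicate 1, 3 or 4, with an adjusted p of up to 0.106. Fbxo31 missed it without replicate 1, 2 or 3, and Fbxo40 without any 1 of the 4. Other members of the same families were near 0, among them Asb5 (0.03), Trim55 (0.02), Trim54 (0.02), Klhl41 (0.02) and Stub1 (-0.06).

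Autophagy and lysosome genes gave 7 falls and 1 rise among 31 measured, and 23 did not pass, beside 2.89% lower and 4.12% higher over all genes. The list's median was -0.05 with loess and 0.06 with median centring, and that scaling left 0 falls in the list. The leading falls were in the parts that start and build the autophagosome. Gabarapl1, which is coupled to the autophagosome membrane, stood at -1.55, -1.23, -1.14 and -1.01 (a fall of 1.23, adjusted p = 6.94e-05), and its other probe was at -0.21. Ulk1, the initiating kinase, stood at -0.85, -0.98, -1.30 and -0.86 and fell by 1.00 (adjusted p = 0.00169). The cargo receptors Sqstm1 (-0.55), Bnip3 (-0.45) and Bnip3l (-0.39) and the lipid transfer protein Atg2a (-0.36) fell as well, as did the lysosomal protease Ctsl (-0.89). Ctsl was at -0.99, -1.37 and -1.10 on replicates 1 to 3 and at -0.11 on replicate 4. Atg4a, a protease that processes proteins of the Gabarapl1 family, moved the other way, at 0.93, 1.00, 0.80 and 0.92, a rise of 0.91 (adjusted p = 6.94e-05) with little spread between the arrays. Retreg1, a receptor for autophagy of the endoplasmic reticulum that was not on the list, fell by 0.78, with values from -0.15 on replicate 1 to -1.75 on replicate 3, and lost its call without any 1 of the 4 arrays. Without replicate 1, 2, 3 or 4 the list had 2, 3, 2 and 3 falls: Gabarapl1, Ulk1 and Atg4a kept their calls each time, whereas Ctsl missed the threshold without replicate 1, 2 or 3 and Sqstm1 without replicate 1, 3 or 4. The cathepsins Ctsb (0.22), Ctsd (-0.23) and Ctsk (0.29), the lipidated proteins Map1lc3a (0.19) and Map1lc3b (-0.20) and the regulator Tfeb (-0.12) did not pass.

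The proteasome itself showed 0 calls among 34 subunits, whose values ran from -0.31 for Psmd7 to 0.32 for Psmd8, with a median of -0.00 with loess and 0.30 with median centring. Of the calpains and their inhibitors and of cell death genes, 7 were measured and Capn2, a calcium-dependent protease, rose by 0.39; this call was lost without any 1 of the 4 arrays.

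Promoters of several falling genes are shown because a named motif occurred in them more often than in the tested genes at large. The motif GTAAACA, which FoxO factors are known to bind, was searched on both strands from 250 bases before to 50 after each gene's start in RefSeq promoters of GRCr8. It occurred in 17 of 202 promoters of genes that fell (8.42%), in 2 of 257 of genes that rose (0.778%), in 129 of 6200 of genes tested (2.08%) and in 1076 of 33469 in the whole table (3.21%). The match of a gene to a promoter was made by symbol or gene identifier, and the difference between these shares was not tested. Trim63, Tmem140 and Kiaa0408L were among the 17, and Fbxo32 was not; a window without the letters says nothing of a factor. Capitals mark TGTTTAC, the motif on the printed strand. In Trim63 the capitals also take in the 6 bases before it, TGTTCT, a 6-base androgen response motif that touches the motif. The stretches are chr5:151816986-151817077 (plus strand) for Trim63, chr4:64503425-64503511 (plus) for Tmem140 and chr1:30458973-30459059 (minus) for Kiaa0408L, and the motif region begins 205, 156 and 109 bases before the start.
Trim63: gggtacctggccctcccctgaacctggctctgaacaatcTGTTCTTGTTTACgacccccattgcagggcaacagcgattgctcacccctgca
Tmem140: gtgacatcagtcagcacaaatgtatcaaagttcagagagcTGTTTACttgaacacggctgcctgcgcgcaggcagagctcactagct
Kiaa0408L: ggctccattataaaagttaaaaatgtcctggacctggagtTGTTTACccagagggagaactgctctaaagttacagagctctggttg
Tmem140, a membrane protein, fell by 1.11 (-1.16, -1.03, -1.47 and -0.79), and Kiaa0408L by 1.07 (-1.36, -1.18, -0.97 and -0.78). Both were below 0 on all 4 arrays, with replicate 4 nearest 0.

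In insulin-like growth factor signalling, the largest changes were those of the ligand and of proteins that restrain the pathway. Of 24 genes measured, 2 rose and 2 fell, beside 4.12% higher and 2.89% lower over all genes. The list's median was -0.07 with loess and 0.07 with median centring. Igf1, the ligand, stood at 1.76, 1.60, 2.07 and 1.56, with all 4 arrays above 1.5 log2 units, and rose 3.36-fold (adjusted p = 9.92e-05); its other probe was at 1.60. At 8 h the 4 arrays read 0.69, 0.96, -0.28 and 0.15, and none of them overlapped those of 24 h (difference 1.37, adjusted p = 0.0106). The Igf1 probe lies at chr7:24604715-24604774 on rn4. Igfbp3, a binding protein that holds the ligand in the circulation and the matrix, stood at -2.25, -2.02, -1.67 and -1.43 and fell 3.58-fold. Pik3ip1, which inhibits phosphoinositide 3-kinase, stood at -2.26, -1.73, -1.37 and -1.84 and fell 3.48-fold. Between ligand and target, the kinases and adaptors Irs1 (0.05), Akt2 (0.05), Pik3r1 (-0.06), Pdpk1 (0.07) and Gsk3b (0.03), and the receptor Insr (-0.10), did not pass. Igfbp4 (0.49) and Foxo3 (-0.25) did not pass either.

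Of 20 genes of the mTOR and amino acid sensing machinery, which couples nutrients to protein synthesis, 2 fell and 2 rose. Over all genes, 2.89% were lower and 4.12% higher. Ddit4l, an inhibitor of mTOR complex 1, stood at -1.503, -1.488, -1.421 and -0.683 and fell by 1.27 (adjusted p = 0.000391). Replicates 1 to 3 lay close together and replicate 4 stood apart from them. Flcn, a regulator of the Rag GTPases, fell by 0.61, and the S6 kinase Rps6kb1 (0.41) and its substrate Rps6 (0.45) rose. Rps6kb1 lost its call without any 1 of the 4 arrays. The complex's own subunits Rptor (0.04) and Rictor (-0.12) and the sestrins Sesn2 (0.00) and Sesn3 (-0.10) did not pass. Pim3, a kinase with substrates in this pathway, was not on the list and fell by 1.08 (-1.381, -0.996, -1.096 and -0.854), against 0.17 at 8 h (difference adjusted p = 0.00733).

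Protein synthesis machinery gave few calls, as did the genes tested at large, of which 4.12% were higher and 2.89% lower. Of 45 cytosolic ribosomal proteins 2 rose, Rps6 and Rps19 (0.27), with a median of 0.06 with loess and 0.48 with median centring. Of 37 translation factors and tRNA synthetases 0 passed, with a median of 0.01 with loess and 0.29 with median centring. Of 29 ribosome biogenesis genes, the methyltransferase Fbl (0.34) and the polymerase subunit Polr1d (0.52) rose and the assembly factors Pes1 (-0.56) and Nob1 (-0.26) fell; without replicate 1, 2, 3 or 4, 0, 1, 0 and 0 of them rose and 1 fell each time. Gas5, a noncoding host of small nucleolar RNAs outside this list, fell by 0.76, with values of -0.52, -0.89, -1.05 and -0.58. Amino acid transporters gave 0 calls among 11.

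Of 20 measured genes in the list of androgen response, 5 rose (25%, beside 4.12% of all genes), 2 fell and 13 did not pass, with a median of 0.14. Besides Igf1, the risers were the cochaperone Fkbp5 (0.91, 0.93, 0.69 and 0.90, a rise of 0.86), the polyamine enzymes Amd1 and Odc1, and the metallothionein Mt2A (0.62). Sgk1, a kinase induced by corticosteroids, fell by 0.49. The kallikrein Klk1 had a value of 0.71 and did not pass. Of 29 nuclear receptors and coregulators, 0 rose and 1 fell, and the glucocorticoid receptor Nr3c1 (-0.15) and Ncoa1 (-0.24) did not pass.

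Polyamines are small cations needed for growth, and their synthesis runs through ornithine decarboxylase and decarboxylated S-adenosylmethionine. Of 13 genes measured, 4 rose and 0 fell, beside 4.12% higher and 2.89% lower over all genes. The 4 rises were in enzymes that make polyamines or their donor, but the spermine synthase Sms, another such enzyme, had a value of -0.20 and did not pass. Amd1, which makes the aminopropyl donor, stood at 1.67, 1.47, 0.87 and 1.69 and rose 2.68-fold (adjusted p = 0.000391). Odc1, the first enzyme, had controls that were all not well above background at 24 h, and its rise is therefore given as at least 1.70-fold (0.69, 0.50, 1.06 and 0.82). Mat2a, which makes S-adenosylmethionine, rose by 0.59 and the spermidine synthase Srm by 0.33. The genes for breakdown and uptake control stayed within a narrow range and did not pass: Sat1 (-0.04), Smox (-0.05), Paox (-0.12), Oaz1 (0.01) and Azin1 (0.28). At 8 h Amd1 already stood at 1.17, which overlapped the 24 h arrays (difference 0.25, adjusted p = 0.559), while Odc1 was at 0.10 (difference adjusted p = 0.054).

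Among 22 genes known to be induced by glucocorticoids or FoxO factors, 3 rose and 3 fell. Over all genes, 4.12% were higher and 2.89% lower. The list's median was -0.12 with loess and 0.09 with median centring. Klf15, a transcription factor of amino acid breakdown in muscle, stood at -1.22, -1.11, -1.16 and -0.92 and fell by 1.10 (adjusted p = 4.23e-05) with little spread. The factor Cebpb (-0.62) and Sgk1 fell, and Fkbp5, Mt2A and the thioredoxin inhibitor Txnip (0.70) rose. The rise of Txnip lay on the Cy5 arrays, at 1.29 and 1.11 against 0.40 and -0.02 with treated RNA in Cy3. Without replicate 1, 2, 3 or 4 the list had 2, 1, 1 and 2 falls, and Cebpb missed the threshold without replicate 1, 2 or 3. The members Tsc22d3 (-0.17), Per1 (-0.01), Ddit4 (-0.03) and Klf9 (-0.39) did not pass.

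**Figure D3:**
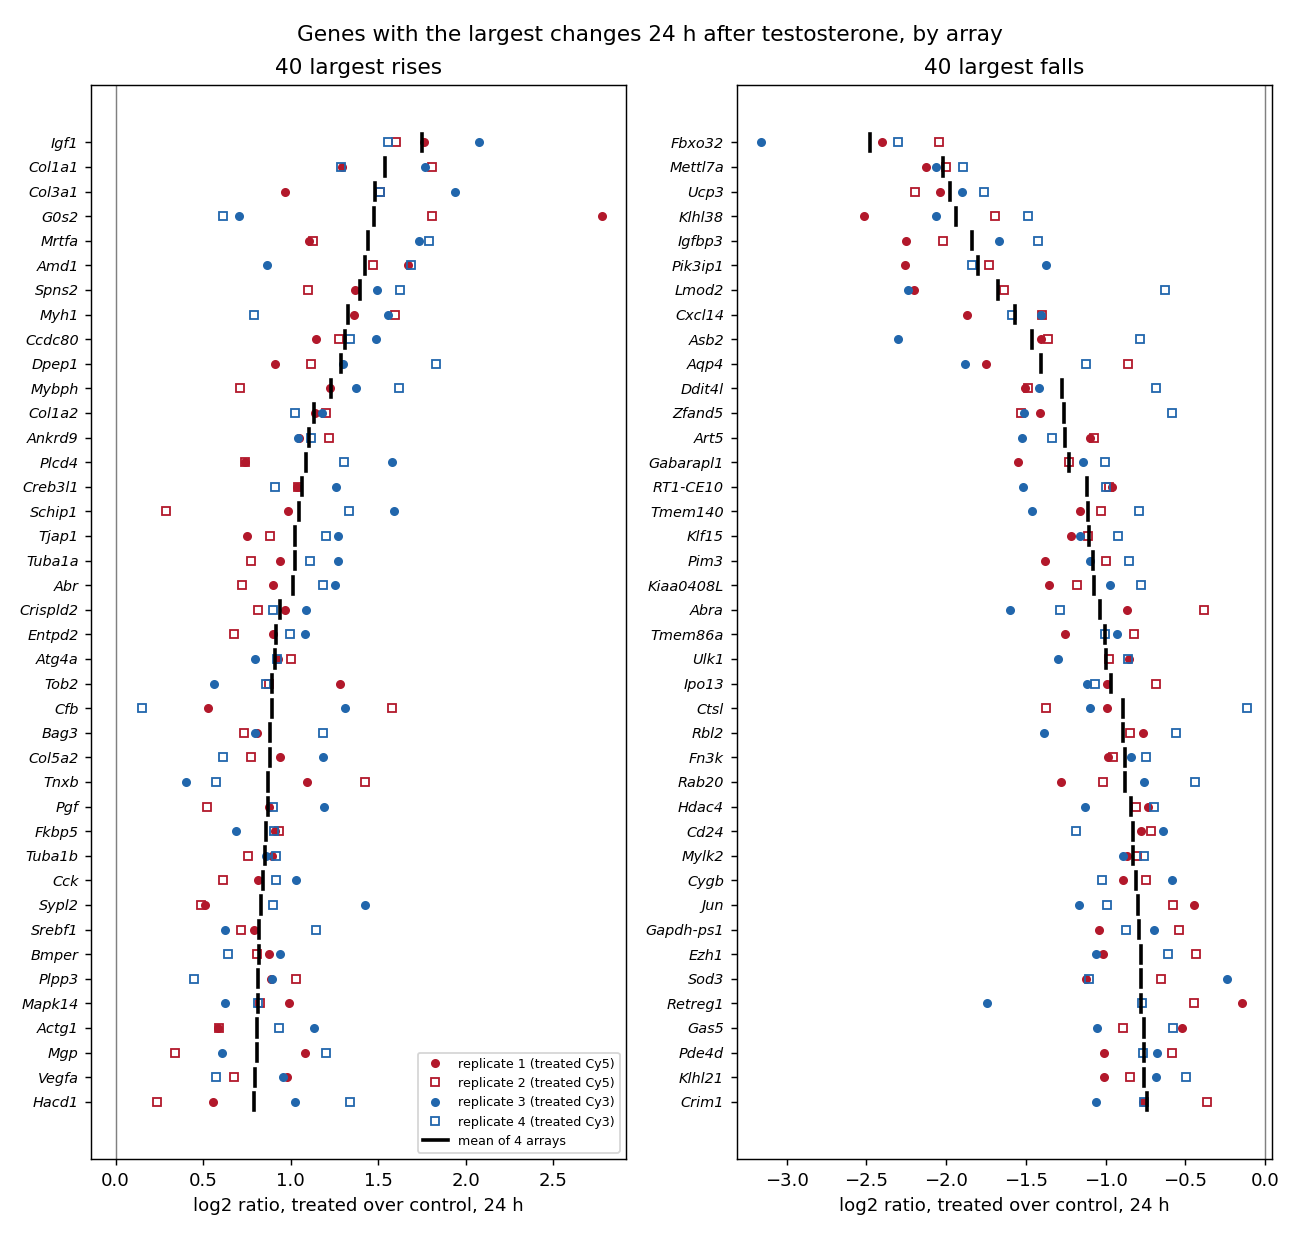
Treated-to-control log2 ratio on each of the 4 arrays of 24 h for the 40 genes with a symbol that rose most (left) and the 40 that fell most (right). Red marks are replicates 1 and 2 (treated RNA in Cy5), blue marks replicates 3 and 4 (treated RNA in Cy3), and the black bar is the mean of 4 arrays; Igf1 leads the rises at 1.75 and Fbxo32 the falls at -2.48, and G0s2 shows the split between dyes, with 2.78 and 1.81 against 0.70 and 0.61.

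In the endoplasmic reticulum and the secretory pathway, most genes that passed were higher, beside 4.12% higher and 2.89% lower over all genes. Of 25 folding and stress genes 7 rose and 1 fell, with a median of 0.15, and of 46 genes of translocation, vesicle transport and glycosylation 10 rose and 0 fell, with a median of 0.13. The chaperone Hspa5 (BiP) stood at 0.85, 0.57, 0.79 and 0.74 and rose by 0.74 (adjusted p = 0.00548). The lectin chaperone Calr rose by 0.52, Hyou1 by 0.49, the prolyl isomerase Fkbp2 by 0.47, Manf by 0.38 and Hsp90b1 by 0.34. Erp29 was not well above background in the controls and was at least 1.16-fold higher. The stress factors Xbp1 (-0.05), Atf4 (0.05), Atf6 (0.12) and Ddit3 (0.18) did not pass, and Chac1, a glutathione-degrading target of the integrated stress response, fell by 0.45. Bag3 (0.88), a cochaperone of selective autophagy, Hspa8 (0.50) and Hspb6 (0.48) rose among 29 cytosolic heat shock proteins and cochaperones, of which 0 fell; without replicate 1, 2, 3 or 4, 1, 1, 3 and 2 of them rose.

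In the secretory pathway the leading gene was Creb3l1, a membrane-bound transcription factor known to drive collagen genes and secretion. Creb3l1 stood at 1.04, 1.04, 1.26 and 0.91 and rose 2.09-fold (adjusted p = 0.000261), against -0.36, 0.10, 0.13 and -0.14 at 8 h (difference 1.13, adjusted p = 0.00733). The translocon subunits Sec61b (0.62) and Sec61g (0.33), the translocon-associated proteins Ssr1 (0.47), Ssr3 (0.61) and Ssr4 (0.43), the cargo receptor Surf4 (0.62) and the vesicle coat genes Sec13 (0.31), Sec31a (0.40) and Sar1a (0.35) rose. Each named riser was above 0 on all 4 arrays, but the other probe of Sec31a was at -0.05. Leaving out replicate 1, 2, 3 or 4 left 2, 5, 4 and 4 rises among the folding genes and 3, 6, 4 and 4 in the secretory pathway, while the medians stayed between 0.13 and 0.21.

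The endoplasmic reticulum stress element, CCAAT and CCACG with 9 bases between them, occurred on either strand in 22 of 33469 promoters of the table (0.0657%), in 10 of 6200 of genes tested (0.161%), in 4 of 257 of genes that rose (1.56%) and in 0 of 202 of genes that fell; the shares were not tested. The 4 were Hspa5, Calr, Hsp90b1 and Hnrnpa3. The first 3, members of the folding list, are shown with the element in capitals, from GRCr8: chr3:38452933-38453015 (plus strand) for Hspa5, chr19:40213117-40213193 (plus) for Calr and chr7:23012307-23012509 (minus) for Hsp90b1, which holds it in both orientations.
Hspa5: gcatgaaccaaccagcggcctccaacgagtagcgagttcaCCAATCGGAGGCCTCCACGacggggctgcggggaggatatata
Calr: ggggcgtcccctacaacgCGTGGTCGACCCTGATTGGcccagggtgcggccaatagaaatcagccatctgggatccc
Hsp90b1: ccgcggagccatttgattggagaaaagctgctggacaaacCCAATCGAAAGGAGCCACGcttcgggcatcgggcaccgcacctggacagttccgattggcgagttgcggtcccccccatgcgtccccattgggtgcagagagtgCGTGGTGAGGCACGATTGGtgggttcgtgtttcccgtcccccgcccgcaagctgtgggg

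Collagen chains had the highest median of the lists with at least 5 measured genes, 0.44, and 6 of 13 rose with 0 falls, against 4.12% of all genes. The fibrillar chains led. Col1a1 stood at 1.29, 1.81, 1.77 and 1.29 and rose 2.90-fold (adjusted p = 0.00214), Col3a1 at 0.96, 1.51, 1.94 and 1.51 (2.79-fold), and Col1a2 at 1.14, 1.20, 1.18 and 1.02 (2.20-fold). Every array was near or above 1 log2 unit for these 3. Col5a2 (0.88), which joins type I fibrils, the basement membrane chain Col4a1 (0.58) and the microfibril chain Col6a3 (at least 1.30-fold, not well above background in the controls) rose, and Col6a1 (0.04), Col16a1 (0.19) and Col14a1 (-0.24) did not pass. Without replicate 1, 2, 3 or 4, 4, 5, 4 and 6 chains rose and the median was 0.57, 0.45, 0.24 and 0.53. At 8 h the fibrillar chains lay lower, at -0.56 for Col1a1, -0.60 for Col3a1 and -0.64 for Col1a2, and each differed between the times (differences 2.10, 2.08 and 1.78, adjusted p of at most 0.013). None of these 3 passed the threshold at 8 h itself (adjusted p in limma from 0.264 to 0.265).

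Beside the collagens, the matrix proteins gave 4 rises and 0 falls among 31 measured, with a median of -0.00 with loess and 0.21 with median centring: Ccdc80 (1.15, 1.27, 1.49 and 1.34, a rise of 1.31), the tenascin Tnxb (0.87), the collagen-binding glycoprotein Sparc (0.78) and periostin (Postn, 0.61). Mgp, a matrix inhibitor of calcification outside this list, rose by 0.81. When replicate 1, 2, 3 or 4 was left out, 2, 3, 2 and 3 of the list rose; Tnxb lost its call without replicate 1 and Postn without replicate 3 or 4, and Mgp missed the threshold without replicate 1 or 4. Most other matrix genes were near 0, including decorin (Dcn, -0.00), biglycan (Bgn, -0.07), fibronectin (Fn1, 0.15), fibrillin (Fbn1, 0.20) and laminin Lamc1 (-0.02). Of 15 collagen-processing enzymes P3h4 (0.37) rose and 14 did not pass, among them Lox (0.20), P4ha1 (0.17) and Serpinh1 (0.27), and of 14 matrix proteases and inhibitors Mmp23 (0.31) and Adamts1 (0.31) rose; the calls of P3h4, Mmp23 and Adamts1 were lost without any 1 of the 4 arrays. The fibroblast markers outside the collagens did not share the rise. Of 16 measured, the 3 that rose were Col1a1, Col1a2 and Col3a1; gelsolin (Gsn, -0.57) and Islr (-0.29) fell, and Pdgfra (-0.03), Dpt (-0.05), Pi16 (-0.05), Lum (-0.25) and Cd34 (0.14) did not pass. Their summed level was 9281 to 12200 intensity units in the controls and 13290 to 19430 in the treated samples, a sum that includes the 3 collagens. In such bulk RNA, fewer cells of a type and less RNA per cell cannot be told apart.

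Actin and tubulin genes build the cytoskeleton, and some of them rose, beside 4.12% higher and 2.89% lower over all genes. Of 34 genes of the actin cytoskeleton and of serum response factor targets, 10 rose and 1 fell, with a median of 0.14; of 19 tubulins and microtubule proteins, 6 rose and 0 fell, with a median of 0.20. Mrtfa, the actin-sensing coactivator of serum response factor, stood at 1.11, 1.13, 1.73 and 1.79 and rose 2.71-fold (adjusted p = 3.79e-06). Its other probe was at 0.21, so its probes disagree in size. Srf, the factor itself, stood at 0.36, 0.07, 0.73 and 0.59 and rose by 0.44. The nonmuscle actins Actg1 (0.58, 0.59, 1.13 and 0.93, a rise of 0.81) and Actb (1.10, 0.90, 0.77 and -0.04, a rise of 0.68) rose, and replicate 4 stood at about 0 for Actb. Tmsb4x (0.53), which binds actin monomers, Cnn3 (0.39), Tpm4 (0.35), the Arp2/3 subunits Arpc5 (0.35) and Arpc1b (0.32) and Capg (0.31) rose too, while Ankrd23 fell by 0.41. The smooth muscle genes Acta2 (-0.04), Tagln (0.04) and Myl9 (0.08), known targets of the same factor, did not pass. When replicate 1, 2, 3 or 4 was left out, 2, 5, 2 and 4 of the list rose; Srf lost its call without replicate 1, 3 or 4, Actb without replicate 1, 2 or 3, and Mrtfa and Actg1 were called each time. Abra, an activator of this coactivator in striated muscle, fell by 1.04, with values from -0.38 on replicate 2 to -1.60 on replicate 3, against 0.53 at 8 h (difference adjusted p = 0.0242), and its call was lost without replicate 1, 3 or 4.

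Among tubulins, Tuba1a stood at 0.94, 0.78, 1.27 and 1.11 and rose 2.03-fold (adjusted p = 0.000122), and Tuba1b at 0.89, 0.76, 0.86 and 0.91 (1.81-fold). Tuba1c (0.60) and Tubb2a (0.59) rose, and Tubb4b (0.58) and Tubb5 (0.16) did not pass. Tubulin and actin genes are close paralogues, and cross-hybridisation between their probes was not tested. The dynein light chain Dynll1 (0.73) and Map1s (0.65) rose. Tuba8 (-0.32), Tubg1 (-0.26) and Map4 (-0.26) did not pass. With replicate 1, 2, 3 or 4 left out the number of rises was 5, 7, 5 and 5.

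The CArG box, the site of serum response factor, was found in 5 of 257 promoters of genes that rose (1.95%), 2 of 202 of those that fell (0.99%), 81 of 6200 of genes tested (1.31%) and 501 of 33469 in the table (1.5%), with no test of these shares. The rises with a box were Srf, Actg1, Fhl1, Sema3c and Itgb6, and the falls Acta1 and Zbtb38. The boxes of Srf (2 of them), Actg1, Fhl1 and Acta1 are shown in capitals because these genes belong to the actin and sarcomere lists and moved in both directions. The stretches are chr9:21923955-21924064 (plus strand) for Srf, chr10:106120992-106121081 (minus) for Actg1, chrX:139638354-139638443 (plus) for Fhl1 and chr19:68784239-68784328 (minus) for Acta1, all on GRCr8.
Srf: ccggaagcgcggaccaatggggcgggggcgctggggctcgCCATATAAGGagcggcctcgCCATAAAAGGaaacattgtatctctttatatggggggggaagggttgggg
Actg1: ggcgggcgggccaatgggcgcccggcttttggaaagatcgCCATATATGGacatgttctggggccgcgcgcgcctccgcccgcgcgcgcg
Fhl1: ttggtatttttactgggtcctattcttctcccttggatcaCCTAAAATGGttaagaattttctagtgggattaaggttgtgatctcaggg
Acta1: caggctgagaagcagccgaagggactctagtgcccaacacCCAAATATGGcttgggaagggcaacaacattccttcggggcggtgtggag

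Contractile genes of fast fibres had a list median of -0.37 with loess, -0.29 from the processed signals and 0.08 with median centring. All genes tested had a median of 0.155 under median centring. With loess, 3 of 17 fell, 1 rose and 13 did not pass. Mylk2, the kinase of the myosin light chain, stood at -0.86, -0.80, -0.89 and -0.76 and fell by 0.83 (adjusted p = 0.000891); under median centring its adjusted p was 0.25. Actn3 (-0.55) and Acta1 (-0.44) fell, and both lost their call without any 1 of the 4 arrays and under median centring. Actn3, Atp2a1, Myl11 and Tnni2 had saturated spots on 2 arrays in the treated and in the control RNA. Tnnc2 had them on 2 arrays and Pvalb on 1, in the treated RNA only. The ratios of these genes, and the list median, are limited by this. Myh4 (-0.42), Tnnt3 (-0.37), Tnni2 (-0.38) and Atp2a1 (-0.53) did not pass. Myh1, the heavy chain of type IIx fibres, was the exception. It stood at 1.36, 1.60, 1.55 and 0.79 and rose 2.51-fold (adjusted p = 0.0222), where the 8 h arrays read -2.68, -1.68, -1.84 and -0.02 (difference 2.88, adjusted p = 0.0105). No 8 h array overlapped those of 24 h. Without any 1 of the 24 h arrays the call of Myh1 was lost (adjusted p from 0.0719 to 0.116), and heavy chain probes can share signal, which was not tested.

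Among 11 slow and cardiac contractile genes, Lmod2, which lengthens actin filaments, fell by 1.68 and 10 did not pass, including Tnnt1 (0.07), Tnnc1 (-0.28), Atp2a2 (0.22) and Tpm3 (0.22). Lmod2 read -2.20, -1.64, -2.24 and -0.63, with replicate 4 apart from the others. Of 36 sarcomere scaffold and Z disc genes 4 rose and 1 fell: the junctophilin Jph2 (0.54), dystroglycan (Dag1, 0.66 over 3 arrays), Fhl1 (0.61) and the thin filament cap Tmod4 (0.36) rose, and Nrap (-0.52), which links actin to the membrane, fell. Fhl1, a LIM protein, stood at 0.80, 0.82 and 0.81 on replicates 1 to 3 and at 0.02 on replicate 4. When replicate 1, 2, 3 or 4 was left out, 0, 2, 3 and 4 genes of the scaffold list rose; Fhl1 missed the threshold without replicate 1 or 2, and Dag1 without replicate 1, 2 or 3. From the processed signals 0 genes of the scaffold list passed, and with median centring 4 rose and 0 fell. Titin (Ttn, -0.16), nebulin (Neb, -0.07), dystrophin (Dmd, -0.14) and desmin (Des, 0.10) did not pass. Mybph, a myosin-binding protein outside these lists, rose by 1.23 (1.22, 0.71, 1.37 and 1.62).

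Of 41 genes of calcium handling and excitation, 3 rose and 2 fell, beside 4.12% higher and 2.89% lower over all genes. Aqp4, the water channel of fast fibres, stood at -1.75, -0.86, -1.88 and -1.12 and fell by 1.40 (adjusted p = 0.00231), and its other probes read -0.64 and -0.50. The sodium channel subunit Scn4b fell by 0.51, with values between -0.46 and -0.60. Calm2 (0.79, 0.76, 0.61 and 0.55, a rise of 0.68), Sypl2 (0.83), a protein of the triad membrane, and the calcineurin subunit Ppp3r1 (0.31) rose. Calm3 (-0.01), which encodes the same protein as Calm2, did not pass. Sarcolipin (Sln) had a value of 0.82 and phospholamban (Pln) -0.29, and neither passed.

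Regulators of fibre identity showed single changes, beside 4.12% higher and 2.89% lower over all genes. Of 28 myogenic and satellite cell genes, Myog (0.37) rose and Hdac4 (-0.84), Mef2d (-0.37) and Tead1 (-0.32) fell. Hdac4, a deacetylase that responds to denervation, stood at -0.74, -0.81, -1.13 and -0.70 (adjusted p = 0.00436). Myog lost its call without any 1 of the 4 arrays, and without replicate 1, 2, 3 or 4, 1, 1, 1 and 2 of the list fell. Myod1 (0.13), Myf6 (0.07) and Mef2c (0.20) did not pass. In the myostatin, activin and BMP group 1 of 24 passed, a rise, and this 4.17% was about the share over all genes. It was Fst, the activin and myostatin antagonist follistatin, at 0.79, 0.84, 0.96 and 0.32, a rise of 0.73 (adjusted p = 0.00304). Mstn (-0.00), its receptor Acvr2b (-0.41), Smad7 (-0.38) and Inhba (-0.05) did not pass. Bmper, a secreted BMP regulator outside the list, rose by 0.82, and Crim1, which binds BMPs, fell by 0.74. Axin1 (-0.28) was the 1 gene of 26 in the Wnt, Notch and Hippo list to pass. Cdkn1b, an inhibitor of cyclin-dependent kinases, fell by 0.40 and was the 1 call among 15 cell cycle genes, and Rbl2, a retinoblastoma relative, fell by 0.89. Among 17 immediate early genes, Jun fell by 0.80 and Klf10 rose by 0.53. Jun read -0.44, -0.58, -1.17 and -0.99, and its call was lost without any 1 of the 4 arrays. The circadian clock gave 0 calls among 15 genes, from Npas2 at -0.28 to Dbp at 0.32.

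**Figure D4:**
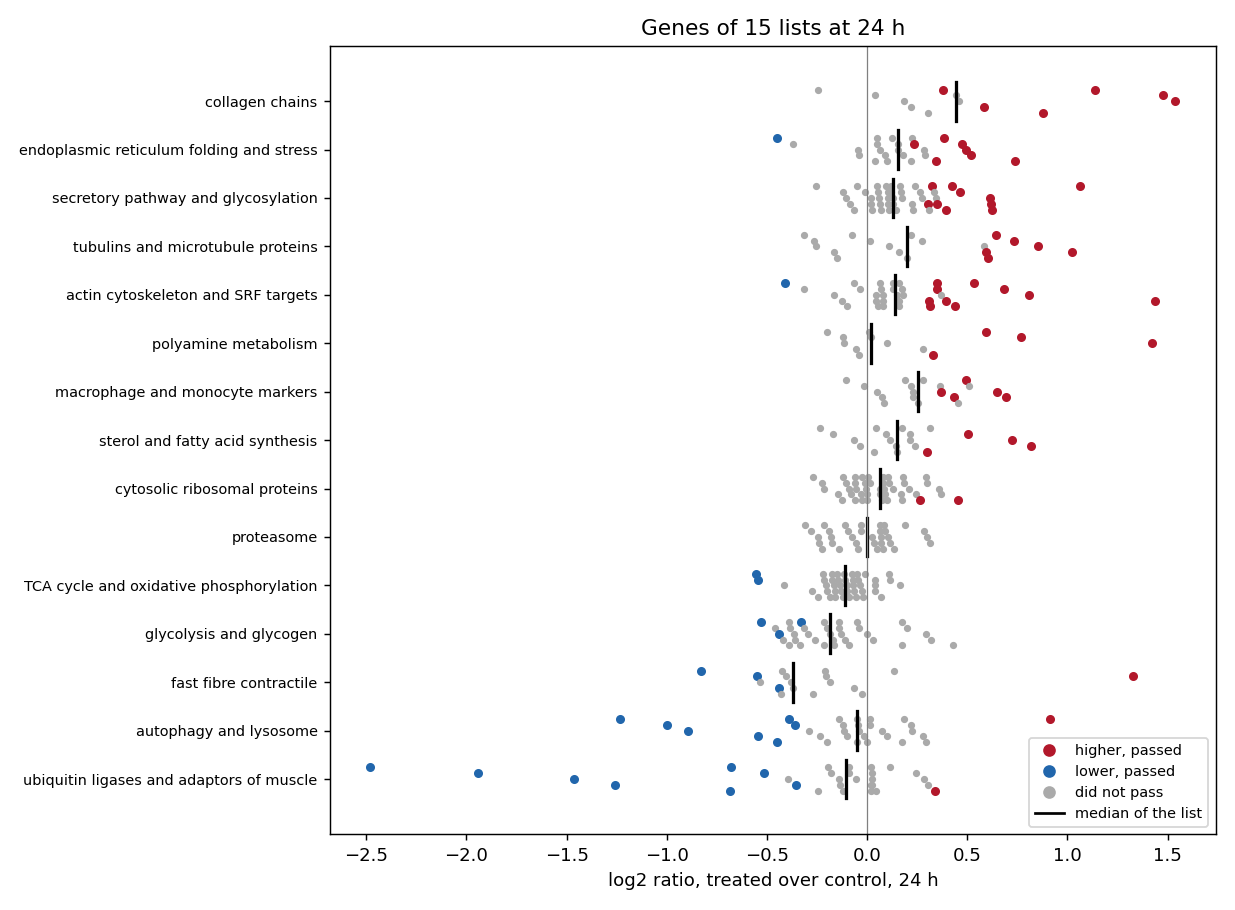
Log2 ratio at 24 h of each measured gene in 15 lists, 1 point per gene, with a black bar at the list's median. Red points rose, blue points fell and grey points did not pass; collagen chains have the highest median, 0.44, and the fast fibre list the lowest, -0.37, while the proteasome list holds grey points only.

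Energy metabolism gave few calls, beside 4.12% higher and 2.89% lower over all genes. Of 35 glycolysis and glycogen genes 3 fell and 0 rose, with a median of -0.19 with loess and 0.05 with median centring, and of 43 genes of the TCA cycle and oxidative phosphorylation 2 fell and 0 rose, with a median of -0.11 with loess and 0.23 with median centring. The glycogen synthase Gys1 fell by 0.33 with loess and stood at 0.08 with median centring; Ppp1r3a (-0.53), which targets a phosphatase to glycogen, and the kinase Pdk2 (-0.44) fell. Cox4i1 (-0.55), a cytochrome oxidase subunit, and Idh2 (-0.55) fell, and 41 did not pass. The array medians of the oxidative list were -0.17 and -0.24 on the arrays with treated RNA in Cy5 and -0.00 and 0.02 on the Cy3 arrays. From the processed signals and from median centring, 0 genes of these lists passed, and neither did any without replicate 1. The mitochondrial kinase Pink1 fell by 0.53 as the 1 call among 20 genes of mitochondrial biogenesis and dynamics.

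Ucp3, a mitochondrial carrier that follows fatty acid supply, had the largest fall in metabolism. It read -2.04, -2.19, -1.90 and -1.76, close together on all 4 arrays, and fell 3.93-fold (adjusted p = 4.16e-05); its probe lies at chr1:157909519-157909578 on rn4. Of the 37 genes of fatty acid uptake, storage and oxidation, Acsl6 (-0.27) also fell, and G0s2 and Fabp4 (0.43) rose. G0s2, an inhibitor of the lipase Pnpla2, rose by 1.48 with the widest spread of the 80 largest changes (SD 1.02). Its values were 2.78 and 1.81 with treated RNA in Cy5 and 0.70 and 0.61 in Cy3, so the size of its rise differed with the dye. The oxidation enzymes Cpt1b (-0.06), Acadm (0.00), Hadha (0.08) and Acadvl (0.10) did not pass. Sterol and fatty acid synthesis gave 4 rises and 0 falls among 19, with a median of 0.15, beside 4.12% higher over all genes. Srebf1, the transcription factor of lipid synthesis, stood at 0.79, 0.72, 0.63 and 1.14 and rose by 0.82 (adjusted p = 0.000549), and Acly (0.72), Hmgcs1 (0.50) and Idi1 (0.30) rose. When replicate 1, 2, 3 or 4 was left out, 3, 2, 1 and 1 of them were called. Hacd1, an enzyme of long-chain fatty acid elongation in muscle, rose by 0.79, a call that was lost without replicate 1, 3 or 4.

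In amino acid metabolism, the transaminase Bcat1 (0.35), the alanine transaminase Gpt2 (0.54) and the serine synthesis enzyme Phgdh (at least 1.16-fold, not well above background in the controls) rose, and the mitochondrial Bcat2 (-0.33) and the AMP deaminase Ampd1 (-0.50) fell, of 25 measured; without replicate 1, 2, 3 or 4, 0, 1, 1 and 1 of them rose and 0, 0, 0 and 1 fell. Among 35 antioxidant genes 3 rose and 3 fell. The falls were the extracellular dismutase Sod3 (-0.78), the sulfiredoxin Srxn1 (-0.54) and the regulator Nfe2l2 (-0.31), and the rises Gpx1 (0.43), Mt2A and Txnip. Over the fits that left out replicates 1 to 4 in turn, 1, 1, 1 and 2 of these rose and 0, 1, 1 and 2 fell. Srxn1 read 0.80, 0.51, 0.21 and 0.98 at 8 h, above 0 where the 24 h arrays were below it, and the difference of -1.17 passed (adjusted p = 0.013).

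Of 22 genes of vascular growth and hypoxia, 3 rose, 3 fell and 16 did not pass; with median centring 3 rose and 0 fell. Vegfa (0.98, 0.68, 0.95 and 0.58, a rise of 0.80), its relative Pgf (0.87) and the receptor Kdr (0.36) rose, and Bnip3, the prolyl hydroxylase Egln3 (-0.44) and adrenomedullin (Adm, -0.35) fell. Over the fits that left out replicates 1 to 4 in turn, 2 rises were called each time, with 1, 0, 0 and 0 falls. Of 11 endothelial markers Kdr and Plvap (0.52) rose, and Pecam1 (0.14), Cdh5 (-0.27), Vwf (-0.07) and Egfl7 (0.00) did not pass; their summed level was 1993 to 2456 intensity units in the controls and 2079 to 2648 in the treated samples. Without any 1 of the 24 h arrays 0 endothelial markers were called. Sphingosine 1-phosphate, a lipid signal to vessels and immune cells, showed 3 rises among 10 genes, beside 4.12% higher over all genes. Its exporter Spns2 stood at 1.37, 1.10, 1.49 and 1.62 and rose 2.63-fold (adjusted p = 4.16e-05), the lipid phosphatase Plpp3 rose by 0.81 and the ceramide synthase Cers1 by 0.32, and the receptors S1pr1 (0.08) and S1pr2 (0.23) did not pass.

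Of 19 macrophage and monocyte markers 5 rose and 0 fell, beside 4.12% higher over all genes, with a median of 0.26. Their summed level was 7470 to 8694 intensity units in the controls and 9215 to 11490 in the treated samples, which do not overlap. C1qa (0.80, 0.68, 0.76 and 0.52, a rise of 0.69) and C1qc (0.43), subunits of the complement initiator that macrophages make, the scavenger receptor Cd163 (0.50), lysozyme (Lyz2, 0.65) and the folate receptor Folr2 (0.37) rose. The defining markers Cd68 (-0.02), Adgre1 (0.05), Csf1r (0.08) and Itgam (-0.10) did not pass. Over the fits that left out replicates 1 to 4 in turn, 2, 4, 2 and 4 markers were called. Haemoglobin genes, which mark red blood cells, were high on replicate 3: the median of the 4 measured was 1.85 there, against 0.25, 0.18 and -0.12 on replicates 1, 2 and 4, and their summed level reached 34180 in a treated sample where the controls held 9675 to 11520. On the same array the collagen median was 1.01, against 0.30 to 0.35 on the others, and the macrophage median 0.44, against 0.18 to 0.27; the part of blood or of these cells in the result was not tested. Without replicate 3 the medians were 0.24 for collagen chains and 0.15 for macrophage markers.

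The lists of other cell types and immune genes are set beside 4.12% higher and 2.89% lower over all genes. Of 18 complement genes C1qa, C1qc and Cfb rose (16.7%). Cfb, a component of the alternative pathway, read 0.53, 1.58, 1.31 and 0.15, a rise of 0.89 (adjusted p = 0.0317), and its call was lost without replicate 2 or 3. Of 18 chemokines, cytokines and receptors Cxcl14 alone passed, at -1.87, -1.40, -1.41 and -1.59, a fall of 1.57 (adjusted p = 0.000148). Of 25 interferon and antigen presentation genes Psmb10 (0.46) rose and RT1-A2 (-0.42) fell. Smooth muscle and pericyte markers gave 1 fall of 13, Abcc9, at -0.30 with loess and 0.02 with median centring. Fabp4 was the 1 rise among 9 adipocyte markers, and adiponectin (Adipoq, 0.37) did not pass. Schwann cell and nerve markers (8 measured), T, B and NK cell markers (2), mast cell markers (2), the neutrophil marker Mpo (-0.11) and 4 epithelial and accessory gland markers gave 0 calls. With so few genes measured, 0 calls say little about these cell types. Of 12 neuromuscular junction and denervation genes Myog rose and Hdac4 fell.

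Beside the 8 h arrays, 134 of the 763 genes called at 24 h had a ratio that differed between the times at an adjusted p under 0.05. The 80 largest changes, 40 in each direction, held 48 of these, 24 rises and 24 falls. Some of the 48 read near 0 at 8 h: Zfand5 read 0.17, 0.03, -0.33 and 0.19, and Pim3 0.20, 0.05, -0.05 and 0.48. Others did not, among them Myh1 (-1.55 at 8 h), Ucp3 (-0.67) and Col1a1 (-0.56). All 48 were chosen for a large ratio at 24 h that differed from 8 h, so their 8 h values are not independent of the choice. Some genes outside the 48 also stood away from 0 at 8 h. Tob2, an antiproliferative protein, read 1.49, 1.70, 0.53 and 0.83 at 8 h and 1.28, 0.88, 0.56 and 0.86 at 24 h, where it rose by 0.90 (adjusted p = 0.0149; difference adjusted p = 0.662); the call at 24 h was lost without replicate 1 or 2. Bag3 stood at 0.73 at 8 h and 0.88 at 24 h. RT1-CE10, a class I histocompatibility gene, stood at -0.95 and -1.11, and Spns2 at 0.81 and 1.40. A p that missed the threshold does not show that the ratios at the 2 times were equal, and both times may share control RNA. With median centring 0 of the 80 genes differed between the times.

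**Figure D5:**
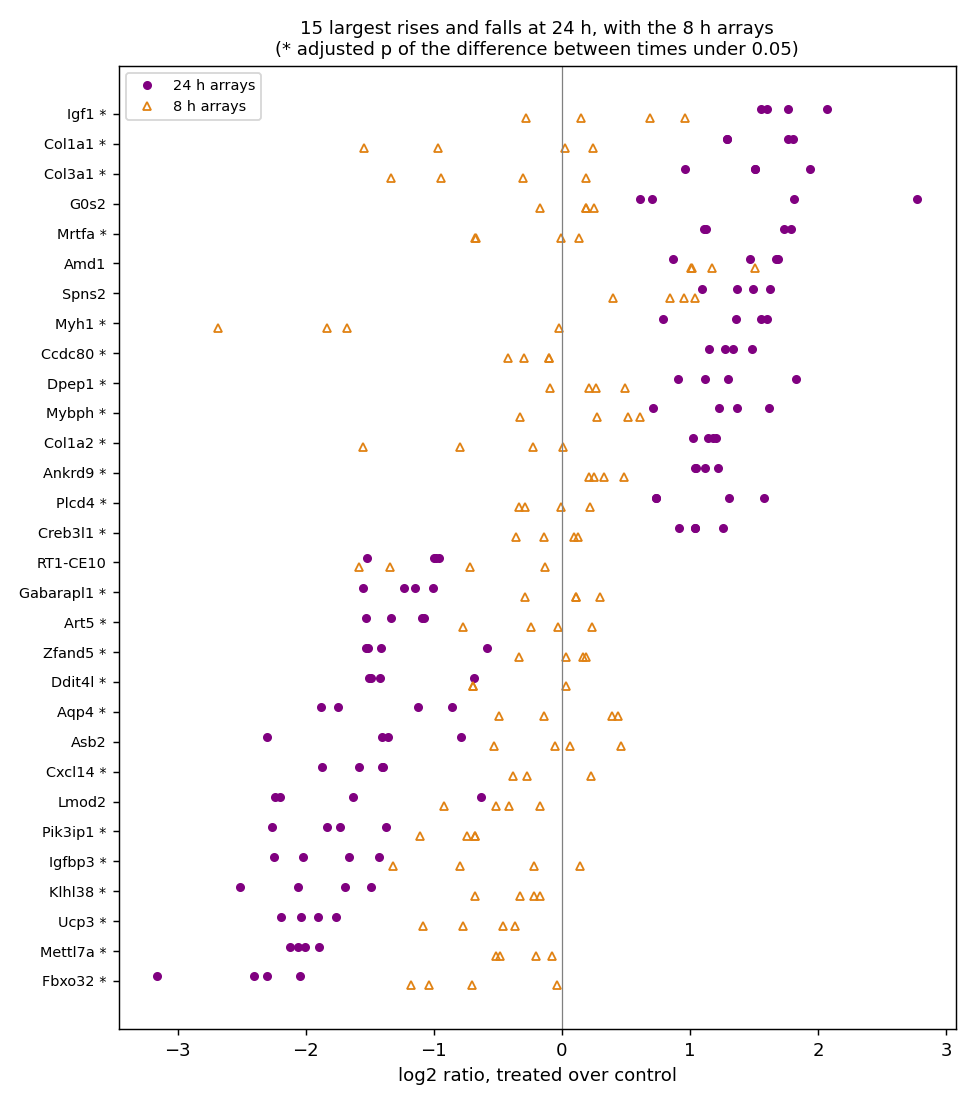
Treated-to-control log2 ratio on each array for the 15 genes that rose most and the 15 that fell most at 24 h (purple circles), with the 8 h arrays of the same genes (orange triangles). A star marks genes whose ratio differed between the times at an adjusted p under 0.05; the 8 h values of Amd1, from 1.01 to 1.51, lie within or next to its 24 h values, while those of Myh1 lie below 0.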

How the data were processed

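Per the labels' protocols, RNA came from a Trizol extraction and was labelled by Quick Amp. The submitters' processing notes name Agilent Feature Extraction 9.5.3.1 as the scan software. The deposited mean signals and local backgrounds are linear intensities without normalization, and the processed signals are background-corrected, dye-normalized intensities, per the file headers. The deposited LogRatio is a log10 ratio of Cy5 over Cy3, per the file headers. The deposited value table holds the authors' log2 ratios, whose scale and direction are not stated there; set against the processed signals of the same arrays, as treated-to-control log2 ratios, it differed by at most 1.35e-05.

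With limma 3.58.1 under R 4.3.3, background was removed from mean signals by normexp (offset 50), and loess then evened the dyes of each array. Control spots and outlier-flagged spots (731 to 927 of 42877 gene spots on an array) were left out and saturated spots kept. A probe was kept if well above background on at least 3 of 4 arrays in 1 of the 4 RNA groups (12074 of 30367 probes), and each gene was represented by its brightest such probe. Names came from a RefSeq gene table (GRCr8) by accession for 18182 probes and by symbol for 3189; 1853 probes kept the file's symbol and 7143 had none. lmFit and eBayes fitted each time and the dye over all 8 arrays; each p is two-sided and adjusted by Benjamini-Hochberg, with a threshold of 0.05. Having 4 arrays a time limits the precision. Where the controls were not well above background, a fold is a bound against the array's lowest signal among probes well above background. Such a bound concerns background only and is not the lower end of a 95% interval. Of the 763 calls, 117 had another kept probe, which had the opposite sign for 5.

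Named genes are the 40 largest rises and 40 largest falls with a symbol and 1 sign on all 4 arrays, and members of 59 gene lists. Genes, lists and tests were chosen with earlier results of these data known, and the lists carry no test of their own. The scripts were tested on simulated data. Some list members count in the totals but are not reported here by name. Promoters matched 6200 of the genes tested, 257 that rose and 202 that fell. Probe positions are on rn4; exons and untranslated regions were not used here.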

Additional observations from a re-analysis of the deposited data

Results flagged for a closer look

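Of 196 named genes measured on all 4 arrays of 24 h, 7 (3.57%) had 1 array that stood apart from the other 3 by Dixon's test, where chance gives about 1 in 20. Replicate 4 stood apart for 3 of them: Ddit4l at -0.68 against a mean of -1.47 on the others, Zfand5 at -0.58 against -1.48, and Fhl1 at 0.017 against 0.81. Replicate 3 stood apart for Cers1 (0.60 against 0.23), Fkbp5 (0.69 against 0.92) and RT1-CE10 (-1.52 against -0.98), and replicate 1 for Dynll1 (0.82 against 0.70). Among the 80 largest changes, replicate 4 was the array nearest 0 for 31 genes, replicate 2 for 25, and replicates 1 and 3 for 12 each.

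The ratio differed between 24 h and 8 h for 48 of the 80 largest changes in limma's test of the difference, and time and slide cannot be told apart. The differences, 24 h minus 8 h on the log2 scale, are given next. Among the falls they were Fbxo32 (-1.74), Mettl7a (-1.70), Klhl38 (-1.59), Abra (-1.57), Aqp4 (-1.45), Cxcl14 (-1.40), Ucp3 (-1.30) and Igfbp3 (-1.29). Next came Gabarapl1 (-1.29), Zfand5 (-1.27), Pim3 (-1.25), Art5 (-1.05), Pik3ip1 (-0.998), Gapdh-ps1 (-0.98), Ipo13 (-0.96) and Ulk1 (-0.95). The smallest were Rbl2 (-0.92), Ddit4l (-0.91), Fn3k (-0.88), Gas5 (-0.85), Ezh1 (-0.83), Tmem86a (-0.82), Rab20 (-0.75) and Klf15 (-0.75). Among the rises the differences were Atg4a (0.56), Bmper (0.60), Cck (0.78), Ankrd9 (0.79), Entpd2 (0.85), Tuba1b (0.95), Mybph (0.96) and Abr (0.99). Larger ones were those of Col5a2 (1.01), Actg1 (1.02), Tuba1a (1.05), Srebf1 (1.05), Dpep1 (1.07), Creb3l1 (1.13), Plcd4 (1.19) and Tjap1 (1.20). The largest were Igf1 (1.37), Cfb (1.51), Ccdc80 (1.54), Mrtfa (1.75), Col1a2 (1.78), Col3a1 (2.08), Col1a1 (2.10) and Myh1 (2.88). The mean ratios of Col1a1, Col1a2 and Col3a1 lay below 0 at 8 h, where none of them passed the threshold, and above 0 at 24 h.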

How the results depend on the processing

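The count of changed genes at 24 h kept within 1.5 times of 763 with normexp offset 16 (860), a strict filter (693 of 7817 genes), no filter (723 of 26255), the mean of a gene's probes (738), no dye term (620), and the processed signals and authors' values (523, with 276 higher and 247 lower). Median centring gave 398 genes, 380 higher and 18 lower, and Gys1 and Abcc9 turned to 0.076 and 0.017. The 24 h arrays alone gave 1583 (804 higher, 779 lower), and array weights 1602 (913 higher, 689 lower). Leaving out 1 array of either time gave from 189 to 1241 changed, 114 to 705 higher and 75 to 536 lower. With the replicate number as a block, 800 genes passed (467 higher, 333 lower), 762 of them shared with the 763; the numbers do not pair the samples, since correlations of same-numbered deviations ran from -0.261 to 0.172 and 1 of 4 exceeded 0.1. Of the 763 genes, 362 were shared with the processed signals and 282 with median centring. Of the 197 named genes, 62 were called under all 19 alternatives with a test, as were 48 of the 80 largest changes. Leaving out a 24 h array kept between 68 and 74 of those 80. The number of the 80 that differed from 8 h was 48, 32 from the processed signals and authors' values, 0 with median centring, and 22 to 60 over the arrays left out; the cause was not tested. Genes near background limit what can be seen: 16 rises are bounds.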

Other observations

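Several of the largest changes belong to no list above. Among the falls, Mettl7a, a methyltransferase of lipid droplets, stood at -2.124, -2.004, -2.063 and -1.893 and fell 4.06-fold, with an SD of 0.098; its other probe was at -0.17, so its probes disagree in size. Art5, an ADP-ribosyltransferase, fell by 1.26, Tmem86a by 1.00, the nuclear import receptor Ipo13 by 0.97, the deglycating kinase Fn3k by 0.88 and cytoglobin (Cygb), a globin of fibroblasts and other cells, by 0.81. Ezh1, a histone methyltransferase of differentiated cells, fell by 0.78, and Pde4d, a cAMP phosphodiesterase, by 0.76. Each was below 0 on all 4 arrays. Among the rises, Dpep1, a membrane dipeptidase, stood at 0.91, 1.12, 1.30 and 1.83 and rose 2.44-fold. Ankrd9 (1.11), the phospholipase Plcd4 (1.09), Schip1 (1.05), Tjap1 (1.03), Abr (1.01), Crispld2 (0.94), the ectonucleotidase Entpd2 (0.91), the peptide precursor Cck (0.84) and the kinase Mapk14 (0.81) also rose. Schip1 varied most of these, from 0.29 on replicate 2 to 1.59 on replicate 3, and its other probe was at 0.03.

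Of the 763 genes, 206 had no gene symbol or only an accession or other placeholder, among them the gene with the largest rise of all. This probe was chosen after its values were seen. It stood at 2.55, 1.65, 1.70 and 2.63 and rose 4.39-fold (SD 0.53, adjusted p = 0.000122), against 0.28 at 8 h (difference 1.86, adjusted p = 0.00841). It lies at chr12:36481500-36481559 on the plus strand of rn4, and the first 30 of its 60 bases are shown so that it can be traced.
Unnamed probe: gggccaaaagcttatgttgtgacccatttt
No gene is named for it here.

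The 6-base androgen response motif AGAACA, searched on both strands, was present in 30 of 257 promoters of genes that rose (11.7%), 26 of 202 of genes that fell (12.9%), 685 of 6200 of genes tested (11%) and 5865 of 33469 in the table (17.5%). The full element, AGAACA and TGTTCT 3 bases apart, was found in 4 promoters of the table (0.012%) and in 0 of the 6200 genes tested; this covers only the bases next to the start.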
